A study of Mus musculus with 8 samples.

Results

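The genes described here are 10 genes of interleukin reception and of the nuclear factor-kappa B (NF-kB) and STAT3 responses that follow it in the liver: Il1r1, Il6ra, Il17re, Il6st, Cxcl1, Il1b, Socs3, Nfkbiz, Stat3 and Rela. They were followed on every probe set whose annotation names 1 of these genes and no other, which gave 26 of the 45037 non-control probe sets of the Affymetrix GeneChip mouse array. Liver RNA of 8 male KK-Ay mice aged 14 weeks was measured with 1 array per mouse. The PD mice (n = 4) had received an AIN-93G diet with 1 g of persimmon peel (PP) extract per kg for 8 weeks, and the CD mice (n = 4) the same AIN-93G diet without the extract. KK-Ay mice carry the yellow Ay allele of agouti on the KK background and are an obese model of type 2 diabetes, and all 8 mice share this background, so no lean or nondiabetic liver was measured. The livers had been chosen for having plasma total ketone bodies near their group's average. Mice are named PD1 to PD4 and CD1 to CD4 by diet and replicate number in the labels.

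Interleukin-1 and interleukin-6 are cytokines that macrophages and other cells release and that act on hepatocytes through their receptors. IL-1 binds IL1R1 and leads through MYD88 to NF-kB, of which the Rela product p65 is a subunit. IL-6 binds IL6RA, which pairs with gp130, the product of Il6st, and activates STAT3 through Janus kinases. Both routes switch on acute-phase genes in hepatocytes, and both induce genes that act back on them. SOCS3, which STAT3 induces, blocks signalling at gp130, and Nfkbiz, which NF-kB induces, encodes the nuclear inhibitor-like protein I-kappa-B zeta, which tunes a subset of NF-kB targets.

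Cxcl1 and Socs3 were the genes among the 10 whose levels spread most between mice, and their promoters are shown for that reason. RefSeq entries (GRCm38.p6) were matched by symbol for 9 of the 10 genes, with 10 windows in all, each from 250 bases before to 50 bases after the transcription start. The 250 bases before the start are printed 5′ to 3′ on the gene's strand. Capitals mark the motif found.
Cxcl1, chr5:90890995-90891244, plus strand: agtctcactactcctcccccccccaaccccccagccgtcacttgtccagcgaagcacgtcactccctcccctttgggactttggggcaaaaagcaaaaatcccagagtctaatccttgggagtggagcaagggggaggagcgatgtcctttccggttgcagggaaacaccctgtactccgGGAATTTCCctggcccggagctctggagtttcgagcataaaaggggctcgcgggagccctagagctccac
Socs3, chr11:117969367-117969616, minus strand: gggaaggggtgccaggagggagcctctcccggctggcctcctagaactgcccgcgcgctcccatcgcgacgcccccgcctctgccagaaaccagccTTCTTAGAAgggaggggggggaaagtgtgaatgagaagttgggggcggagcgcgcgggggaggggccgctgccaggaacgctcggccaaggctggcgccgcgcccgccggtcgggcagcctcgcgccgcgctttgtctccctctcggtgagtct
An NF-kB motif (GGANNTTCC, read on both strands) was present in the window of Cxcl1, 70 to 62 bases before the start, where the letters match it on both strands. Among the other 8 genes with a window it was found in the window of Stat3, 244 to 236 bases before the start, and it occurred in 4.26% of all 32851 promoter windows. A STAT motif (TTCNNNGAA, read on both strands) was present in the window of Socs3 alone among the 9 genes with a window, which left out Nfkbiz, 154 to 146 bases before the start, and it occurred in 8.30% of all windows. These matches describe the letters of the windows and were not tested against the arrays.

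The deposited values are log2 values of a model-based expression index, and every level below is on that scale. Because they come without detection calls, a background level was set on each array at the 95th percentile of 78 probe sets of olfactory and vomeronasal receptor genes, which lay between 7.36 and 7.60. Of the 26 probe sets, 14 were above background on all 8 arrays, 11 on some arrays and 1 on none. For 9 of the 10 genes at least 1 probe set was above background on all 8 arrays, the exception being Socs3. For each gene the brightest probe set over the 8 arrays is given first.

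**Figure D1:**
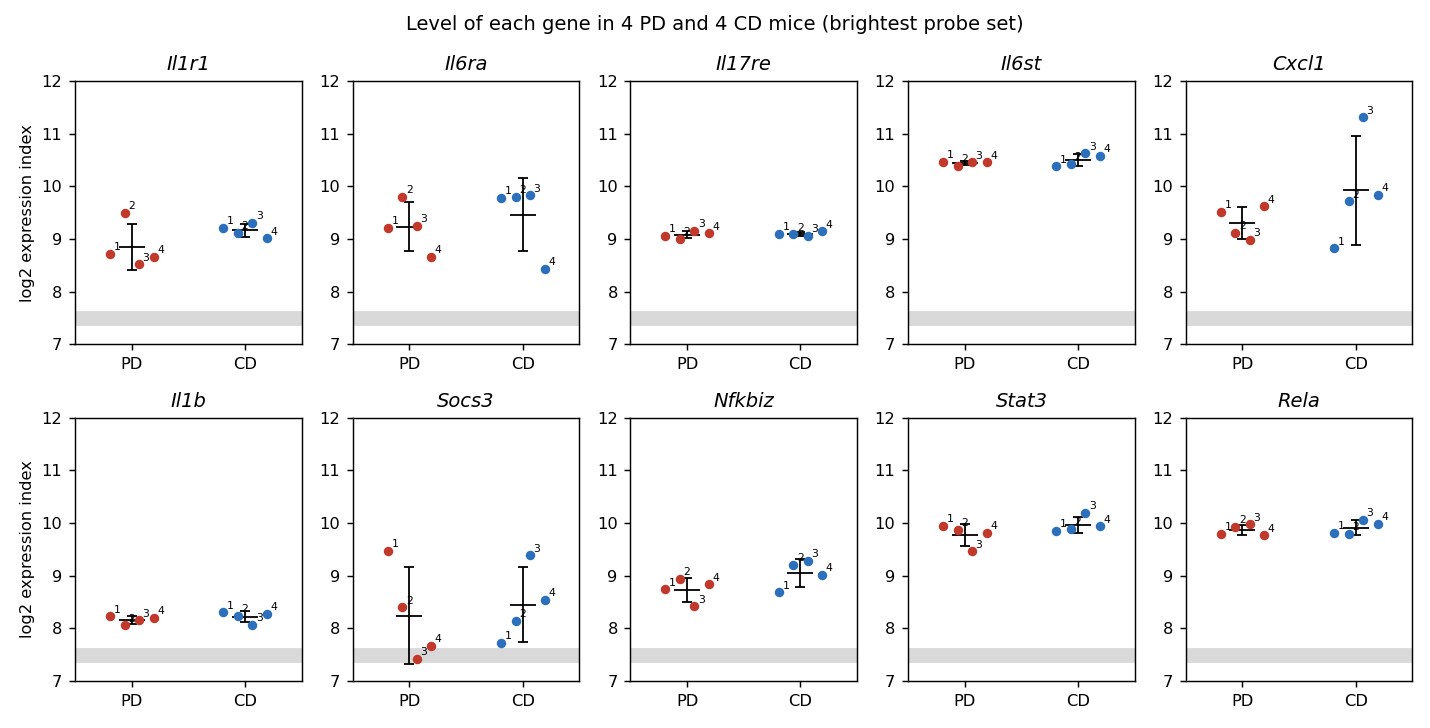
Log2 expression index (vertical axis) of the 10 genes on the brightest probe set of each, in PD mice (red, left) and CD mice (blue, right), with the mean and SD of 4 mice as bars and the replicate number beside each point. The grey band is the range of the background level, 7.36 to 7.60. The diets overlap in every panel, and the widest spreads are those of Cxcl1 in CD mice and of Socs3 in both diets.

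In the comparison of PD with CD livers, a probe set was called where the rank product, taken over all 16 PD/CD array pairs, had a false discovery rate (FDR) under 0.1. Of the 26 probe sets, 9 were called lower in PD mice and 0 higher. Over all 45037 probe sets, 0.262% were called lower and 0.213% higher. The 9 probe sets belong to 6 genes, Cxcl1, Il1r1, Il6ra, Il17re, Socs3 and Nfkbiz, and 6 of the 9 were above background on all 8 arrays. Il1b, Il6st, Stat3 and Rela had no called probe set. Several of the 10 genes had been selected earlier from these same arrays, so the share called, 34.6%, is a description and not independent evidence of a direction. With limma across all probe sets, 0 of the 26 passed an adjusted p under 0.1, and 2 had an unadjusted p under 0.05, both lower in PD mice, against 3.65% of all probe sets in either direction and 1.95% lower. Leaving CD3 out of the rank product left 0 of the 26 called. Not every difference shrank in that run. On Cxcl1 1457644_s_at it went from −0.61 to −0.15, but on Il17re 1439357_at from −0.55 to −0.57. The number of calls over all probe sets also changed when 1 mouse was left out. Whether the loss without CD3 is particular to these genes was not tested. Whole-liver RNA was measured, so fewer cells of a type and less RNA per cell cannot be told apart.

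The signs of the differences ran mostly one way. In 24 of the 26 probe sets (92.3%) the PD mean was below the CD mean. This held for 52.9% of all probe sets and for 48.9% of those above background on all 8 arrays. Several of the genes had been selected earlier from these same arrays, so this share too is a description and not independent evidence. The median difference (PD minus CD, log2) was −0.10 over the 26 probe sets and −0.00 over all. Without CD3, 20 of the 26 were below 0 and the median was −0.06, and without PD1 the median was −0.15. Probe sets of 1 gene read the same RNA of the same mice, and the 26 values are therefore not independent.

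**Figure D2:**
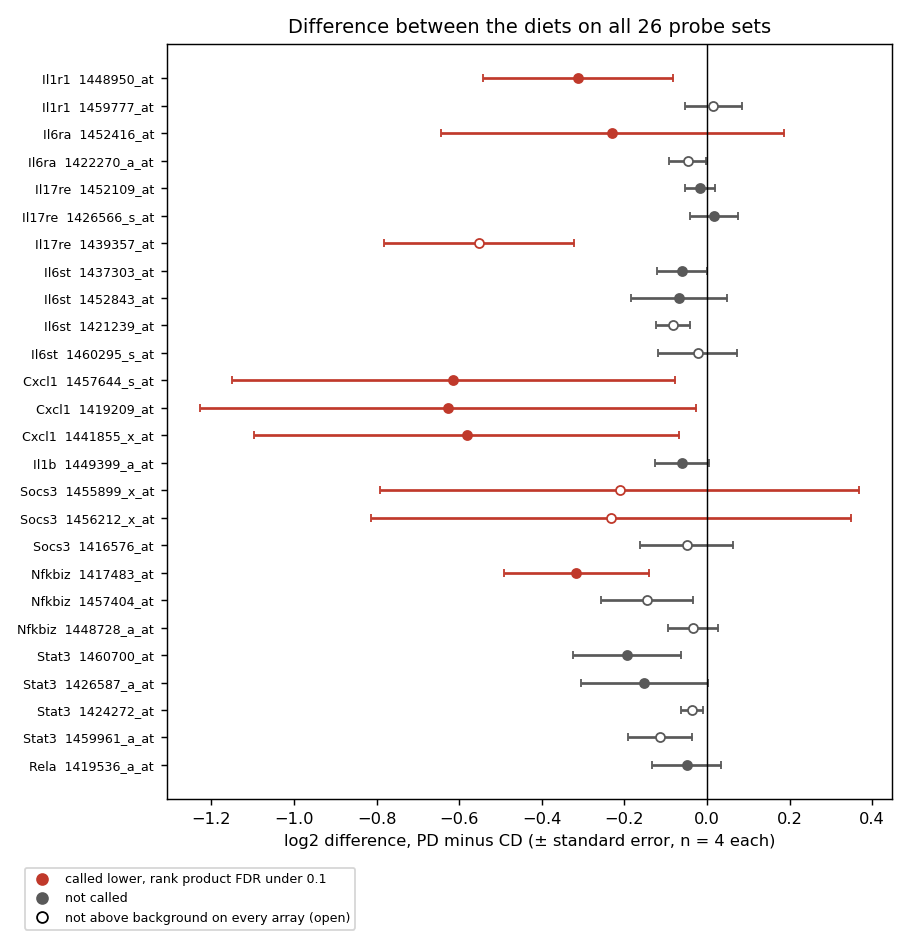
Difference between the diets (PD minus CD, log2, horizontal axis) on each of the 26 probe sets, with the standard error over 4 mice of each diet as bars. Red marks the 9 probe sets called lower in PD mice, and open points were not above background on every array. The largest differences are those of Cxcl1, between −0.58 and −0.63, with standard errors of 0.51 to 0.60.

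Among the ligands, Cxcl1, a chemokine that draws neutrophils and that IL-1 and IL-17 induce through NF-kB, was lower in PD than in CD livers on all 3 of its probe sets. On 1457644_s_at it stood at 9.51, 9.12, 8.98 and 9.62 in PD1 to PD4, against 8.82, 9.71, 11.31 and 9.84 in CD1 to CD4. CD3 was the highest and CD1 the lowest of the 8 mice, and the PD mice lay between them. The PD mice averaged 9.31 ± 0.30 and the CD mice 9.92 ± 1.03 (SD, n = 4 each), a difference of −0.61 with a standard error of 0.54 (rank product FDR = 0.0139), which is 0.653 of the CD level as a ratio. The difference was within the spread between mice in the exact permutation test (two-sided p = 0.314, n = 4 each; the smallest p possible is 0.0286).

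The other probe sets of Cxcl1 showed the same order of mice. On 1419209_at the values were 9.28, 8.80, 8.50 and 9.33 in PD1 to PD4, against 8.33, 9.42, 11.08 and 9.59 in CD1 to CD4, a difference of −0.63 (rank product FDR = 0.00923). On 1441855_x_at the difference was −0.58 (rank product FDR = 0.0188). CD3 was again the highest and CD1 the lowest mouse on both. Without CD3 the 3 differences were −0.15, −0.13 and −0.14 and no probe set of Cxcl1 was called. Without CD1 they were −0.98, −1.05 and −0.94. The within-diet SD of Cxcl1, 0.760 on 1457644_s_at, was above that of 99.9% of the 14684 probe sets above background on all arrays, whose median SD was 0.0900. CD3 was the only mouse whose omission ended the calls of Cxcl1.

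Il1b, the gene of interleukin-1 beta, which activated macrophages make, was not called. Its values were 8.23, 8.06, 8.15 and 8.20 in PD1 to PD4, against 8.30, 8.23, 8.07 and 8.28 in CD1 to CD4. The diets overlapped, and CD3, the mouse with the most Cxcl1, lay just above the lowest mouse, PD2. The difference of −0.06 had a standard error of 0.07 (exact permutation test, p = 0.371, n = 4 each).

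Among the receptors, Il1r1, the signalling receptor of IL-1, was called lower in PD livers. On 1448950_at it stood at 8.72, 9.50, 8.52 and 8.66 in PD1 to PD4, against 9.21, 9.12, 9.31 and 9.01 in CD1 to CD4. PD1, PD3 and PD4 were below every CD mouse, whereas PD2 was above all of them. The means were 8.85 ± 0.44 in PD and 9.16 ± 0.13 in CD mice (SD, n = 4 each), a difference of −0.31 with a standard error of 0.23 (rank product FDR = 0.0501, limma unadjusted p = 0.107). As a ratio the PD level was 0.805 of the CD level. The call was lost without PD3 (−0.20), PD4 (−0.25), CD1 (−0.30), CD2 (−0.33) or CD3 (−0.26), and the difference was −0.53 without PD2. The second probe set, 1459777_at, lay between 5.83 and 6.11, at background on all 8 arrays, and its difference was 0.02.

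Il6ra, the receptor that binds IL-6 and presents it to gp130, was also called lower. Its brightest probe set, 1452416_at, gave 9.21, 9.80, 9.25 and 8.66 in PD1 to PD4, against 9.79, 9.80, 9.83 and 8.43 in CD1 to CD4. CD4 held the lowest value of all 8 mice, while the other CD mice lay between 9.79 and 9.83. The means were 9.23 ± 0.46 in PD and 9.46 ± 0.69 in CD mice (SD, n = 4 each), and the difference of −0.23 had a standard error of 0.42 (rank product FDR = 0.0902; exact permutation test, p = 0.600, n = 4 each). The call was lost without PD3 (−0.23), PD4 (−0.04), CD1 (−0.12), CD2 (−0.12) or CD3 (−0.11). Without CD4 the probe set kept its call and the difference was −0.57, and without PD2 it kept it at −0.42. On the dimmer 1422270_a_at, above background in 2 of 4 PD and 4 of 4 CD mice, the difference was −0.05 and was not called.

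Il6st encodes gp130, the signal-transducing chain that IL-6 shares with LIF, oncostatin M and related cytokines. On 1437303_at it stood at 10.46, 10.39, 10.46 and 10.46 in PD1 to PD4, against 10.38, 10.43, 10.62 and 10.58 in CD1 to CD4. The diets overlapped and the difference was −0.06 with a standard error of 0.06 (exact permutation test, p = 0.400, n = 4 each). On the other 3 probe sets of Il6st, 1452843_at, 1421239_at and 1460295_s_at, the differences were −0.07, −0.08 and −0.02, and none of the 4 was called. The ligand-binding chain and the shared chain of the IL-6 receptor differed in whether they were called, but the difference between these 2 genes was not tested.

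Il17re, the chain through which epithelial cells bind IL-17C together with IL17RA, gave different readings on its 3 probe sets. On 1452109_at the levels were 9.06, 9.005, 9.15 and 9.11 in PD1 to PD4, against 9.10, 9.09, 9.06 and 9.14 in CD1 to CD4, a difference of −0.02 with a standard error of 0.04. On 1426566_s_at, also above background on all 8 arrays, the difference was 0.02. Neither of these probe sets was called. On 1439357_at the values were 6.48, 6.73, 6.80 and 6.78 in PD1 to PD4, against 7.09, 6.85, 7.19 and 7.86 in CD1 to CD4. Here every PD mouse was below every CD mouse, which held for no other of the 26 probe sets. The diets did not overlap in this direction on 1.02% of all probe sets, in the other direction on 1.06%, and in either on 2.08%. The probe set was called (rank product FDR = 0.0133, limma unadjusted p = 0.0101). It was above background in 0 of 4 PD mice and 1 of 4 CD mice, CD4, and both group means, 6.70 ± 0.15 in PD and 7.25 ± 0.44 in CD mice (SD, n = 4 each), were below the background level. No fold change is therefore given for it. The call was lost without CD1, CD3 or CD4, and the difference of the deposited values was −0.35 without CD4, against −0.55 with all mice.

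**Figure D3:**
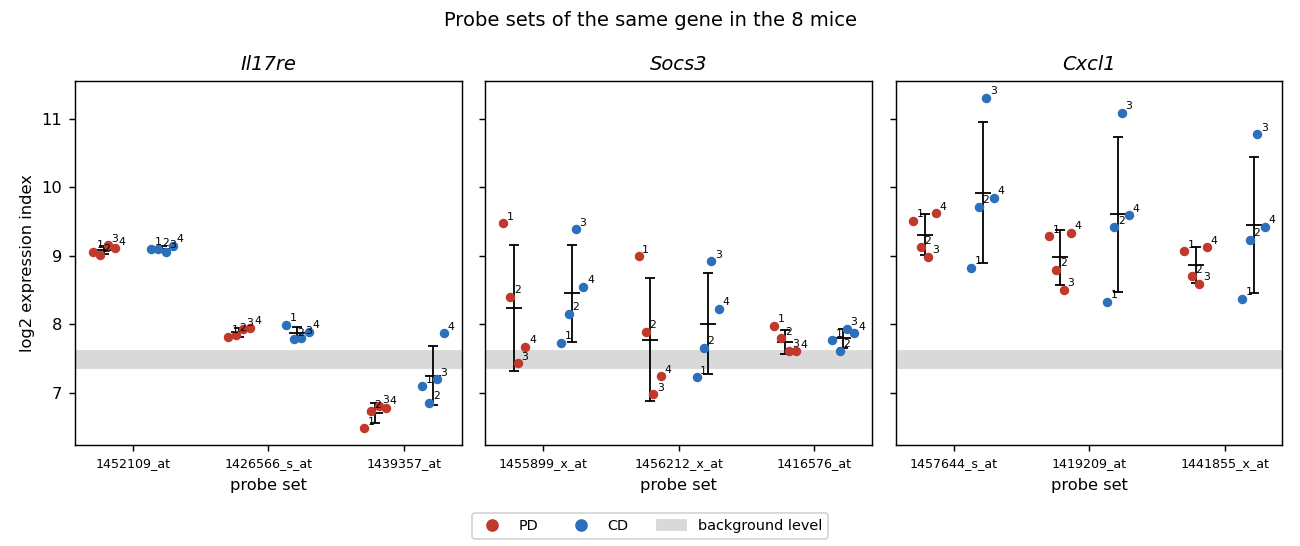
Log2 expression index (vertical axis) of Il17re, Socs3 and Cxcl1 on each of their 3 probe sets, in PD mice (red, left) and CD mice (blue, right), with the mean and SD of 4 mice and the replicate numbers. The grey band is the range of the background level. The called probe set of Il17re, 1439357_at, lies below the band in all mice but CD4, and CD3 stands apart on all 3 probe sets of Cxcl1.

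The transcription factors at the end of both routes were not called on any probe set. Stat3, the factor that gp130 activates, stood on 1460700_at at 9.95, 9.87, 9.47 and 9.82 in PD1 to PD4, against 9.85, 9.89, 10.19 and 9.93 in CD1 to CD4. PD3 was the lowest and CD3 the highest mouse, and the others of both diets overlapped between 9.82 and 9.95. The difference was −0.19 with a standard error of 0.13 (rank product FDR = 0.595; exact permutation test, p = 0.229, n = 4 each). On 1426587_a_at, 1459961_a_at and 1424272_at the differences were −0.15, −0.11 and −0.04. The difference on 1460700_at was −0.09 without PD3 and −0.12 without CD3, and that on 1426587_a_at was −0.02 without CD3. Rela, which encodes the p65 subunit of NF-kB, gave 9.80, 9.93, 9.97 and 9.76 in PD1 to PD4, against 9.81, 9.79, 10.07 and 9.99 in CD1 to CD4. Its diets overlapped, and the difference of −0.05 had a standard error of 0.08 (exact permutation test, p = 0.514, n = 4 each). Both factors are controlled largely by phosphorylation and location, which arrays do not measure.

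Among the feedback genes, Socs3 varied more between mice of 1 diet than between the diets. Its brightest probe set, 1455899_x_at, gave 9.47, 8.40, 7.42 and 7.66 in PD1 to PD4, against 7.72, 8.15, 9.39 and 8.55 in CD1 to CD4. PD1 and CD3 were the highest mice, and PD3 was the lowest. The probe set was above background in 3 of 4 PD and 4 of 4 CD mice, and PD3 lay below its array's background level of 7.56. The means were 8.24 ± 0.92 in PD and 8.45 ± 0.71 in CD mice (SD, n = 4 each), and the difference of −0.21 had a standard error of 0.58 (rank product FDR = 0.0958; exact permutation test, p = 0.714, n = 4 each). The probe set was called, but its within-diet SD of 0.821 was above that of 99.9% of the probe sets above background on all arrays.

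The second probe set of Socs3, 1456212_x_at, was called as well, with a difference of −0.23 (rank product FDR = 0.0951), and it was above background in 2 of 4 PD and 3 of 4 CD mice. The names of both called probe sets end in _x_at, which marks probes that can also bind other transcripts. On 1416576_at, which has no such mark, Socs3 gave 7.97, 7.79, 7.61 and 7.60 in PD1 to PD4, against 7.77, 7.61, 7.93 and 7.87 in CD1 to CD4, a difference of −0.05 that was not called. PD1 and CD3 were again the highest mice of their diets. Without PD3 the differences of the called probe sets were 0.06 and 0.03, and without CD3 they were 0.10 and 0.07, so the sign turned and the calls were lost. The calls were also lost without PD4 (−0.02 and −0.05), CD1 (−0.45 and −0.49), CD2 (−0.31 and −0.35) or CD4 (−0.18 and −0.16). Without PD1 both were called, at −0.62 and −0.64.

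Nfkbiz was called lower on 1 of its 3 probe sets. On 1417483_at it stood at 8.74, 8.94, 8.42 and 8.83 in PD1 to PD4, against 8.69, 9.21, 9.28 and 9.01 in CD1 to CD4. All PD mice were below CD2, CD3 and CD4, and CD1 was below all PD mice except PD3. The means were 8.73 ± 0.23 in PD and 9.05 ± 0.27 in CD mice (SD, n = 4 each), a difference of −0.32 with a standard error of 0.17 (rank product FDR = 0.0997, limma unadjusted p = 0.0419; exact permutation test, p = 0.143, n = 4 each). As a ratio the PD level was 0.803 of the CD level. With another random seed for the permutations the FDR was 0.101, just past the threshold. The call was also lost without PD3 (−0.21), CD1 (−0.44), CD2 (−0.26), CD3 (−0.24) or CD4 (−0.33). On 1457404_at and 1448728_a_at the differences were −0.15 and −0.03, and neither was called.

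**Figure D4:**
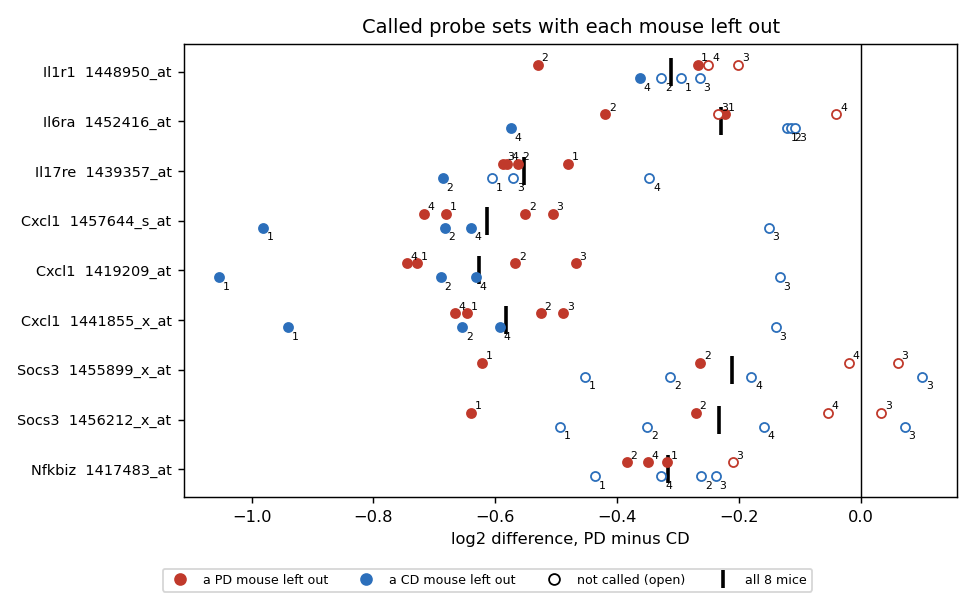
Difference between the diets (PD minus CD, log2, horizontal axis) of the 9 called probe sets when 1 mouse is left out, with red for a PD mouse and blue for a CD mouse, numbered by replicate. Open points were no longer called, and the black bar is the value with all 8 mice. Leaving out CD3 opened the point of each of the 9 probe sets.

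The mice with the highest and lowest values were also counted over the 10 genes. On the brightest probe set, CD3 was the highest of the 8 mice for 6 of the 10 genes (Il6ra, Il6st, Cxcl1, Nfkbiz, Stat3 and Rela), and for 11.6% of the probe sets above background on all arrays. PD3 was the lowest for 4 of the 10 (Il1r1, Socs3, Nfkbiz and Stat3), against 7.04% of those probe sets. This describes the mice and was not tested.

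**Figure D5:**
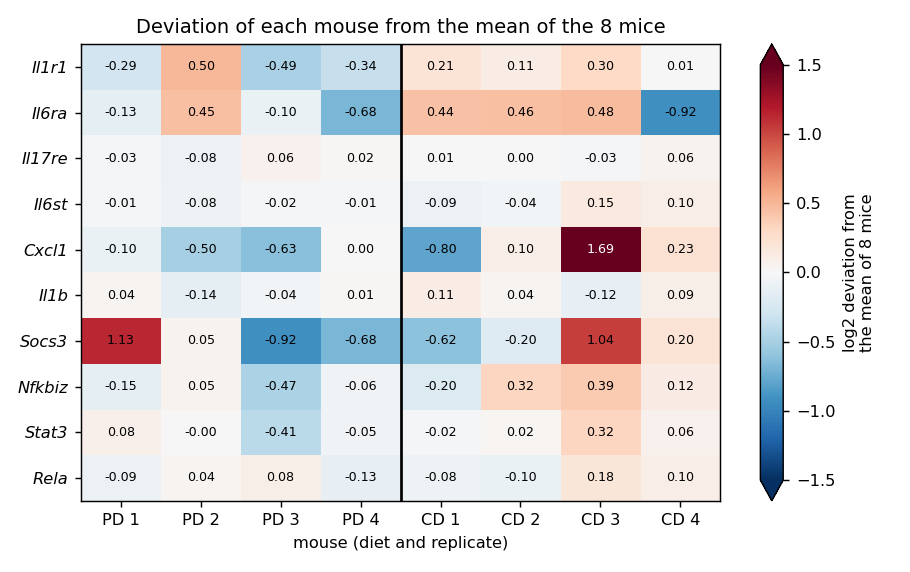
Deviation of each mouse from the mean of the 8 mice (log2, colour) for the 10 genes on their brightest probe sets, with PD mice left and CD mice right of the line. For Socs3, PD1 is 1.13 above the mean, PD3 deviates by −0.92 and CD3 is 1.04 above it, and for Cxcl1 CD3 is 1.69 above it.

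The same routes were followed in lists of other genes, which held 92 measured genes and left out the 10 above. Of these, 4 had a probe set called lower, Lcn2, Saa1, Saa2 and Saa4, and 0 had one called higher. A gene counts here if any of its probe sets was called, whereas the 0.262% called lower over the whole array is a share of probe sets. Saa1, Saa2 and Saa4 belong to the acute-phase list below, which was written with its genes' behaviour on these arrays known. In the IL-1 receptor and NF-kB list, 0 of 25 measured genes were called, with 15 of the differences below 0 and 10 above, and a median of −0.02. In the IL-6, gp130 and STAT3 list, 0 of 19 were called, 6 differences were below 0 and 13 above, and the median was 0.02. In the IL-17 receptor list, 0 of 11 were called, with 5 below 0, 6 above and a median of 0.01. On the brightest probe set, 17 of the 25, 12 of the 19 and 4 of the 11 genes were above background on all 8 arrays. In the same order, 5, 5 and 6 genes were above it on none, so these signs and medians include values at background. In the list of chemokines and other NF-kB targets, Lcn2 was called lower out of 18 measured genes. Here 9 differences were below 0 and 9 above, and the median was −0.01. Of the 18, 3 were above background on all 8 arrays and 10 on none. The 3 were Ccl2 (−0.15), Icam1 (−0.14) and Vcam1 (−0.07), all below 0 and not called. The median over all probe sets was −0.00. These counts moved when 1 mouse was left out, and in the IL-6 list 11 of the 19 differences were below 0 without CD2 and 10 without CD4.

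From these lists 7 genes that share a receptor complex or a cascade with the 10 were described singly, and their differences lay between −0.10 and 0.06, with 0 called. Other genes of the receptor lists lay outside that range, with lowest differences of −0.26 in the IL-1 receptor and −0.22 in the IL-6 list, and were not called either. Il1rap, the co-receptor of IL1R1, averaged 11.62 ± 0.07 in PD and 11.63 ± 0.04 in CD mice (SD, n = 4 each), a difference of −0.02. Myd88, the adaptor of the IL-1 receptor, differed by −0.10, and Nfkbia, an inhibitor of NF-kB that NF-kB itself induces, by −0.07. Jak1 and Jak2, the kinases at gp130, each differed by 0.02. Il17ra, the partner of IL17RE, differed by −0.02 and Il17rc, another chain of the family, by 0.06. Il6, the ligand of IL6RA, stood at 5.76 ± 0.07 in PD and 5.76 ± 0.06 in CD mice (SD, n = 4 each) and was at background on all 8 arrays, as was Cxcl2, a chemokine related to Cxcl1, at 6.12 ± 0.05 in PD and 6.04 ± 0.04 in CD mice (SD, n = 4 each). Nfkb1, the gene of the p50 subunit, was not analysed here.

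Downstream of the receptors, the 20 acute-phase genes of hepatocytes were all above background on the 8 arrays, and 19 of the 20 differences were below 0, with a median of −0.15. Without CD4, 13 of the 20 were below 0 and the median was −0.05. The median was −0.24 without CD1 and −0.23 without CD2. This list was written with its genes' behaviour on these arrays known. In it Saa1, Saa2 and Saa4, genes of the serum amyloid A family, were called lower. Of these, Saa1 and Saa2 are the ones that IL-1 and IL-6 induce. On its only probe set, 1449326_x_at, which may also bind related transcripts, Saa2 stood at 8.87, 10.16, 8.57 and 8.63 in PD1 to PD4, against 8.91, 8.03, 9.88 and 13.95 in CD1 to CD4, a difference of −1.14 (rank product FDR = 0.0126). CD4 was far above the others, and without it the difference was 0.12 and not called. The call was also lost without CD3 (−1.24), and without CD2 the difference was −1.86. Saa1 differed by −0.87 on 1419075_s_at, which may also bind related transcripts (rank product FDR = 0.0128). On 1419075_s_at the call was lost without CD3 (−0.85) or CD4 (−0.057), and the difference was −1.45 without CD2. The other probe set of Saa1, whose name does not end in _s_at or _x_at, was above background on all 8 arrays. It was also called lower, at −0.94 with a standard error of 0.94 (rank product FDR = 0.00914; exact permutation test, p = 0.371, n = 4 each). CD4 was its highest mouse, at 14.18, and its runs without single mice are not given here. Saa4 differed by −0.32 on its brightest probe set, which was not called (rank product FDR = 0.102), and by −0.46 with a standard error of 0.11 on 1419319_at, which was called (rank product FDR = 0.0146). On 1419319_at the diets did not overlap, with 10.63, 10.88, 10.72 and 10.61 in PD1 to PD4, against 10.99, 11.06, 11.28 and 11.36 in CD1 to CD4 (exact permutation test, p = 0.0286, n = 4 each). That call was lost without CD3 (−0.42). Lcn2, an iron-siderophore binding protein among the targets of NF-kB, stood at 8.61, 9.95, 7.96 and 8.16 in PD1 to PD4, against 8.16, 7.57, 9.05 and 12.44 in CD1 to CD4. It was called lower (−0.63, rank product FDR = 0.0667). The call was lost without PD3 (−0.40) or PD4 (−0.46). Without CD4 it was called higher (0.41), and also without CD3, where the ranks of the pairs ran higher although the difference of the means was −0.72. The difference was between −1.21 and −1.02 without PD2, CD1 or CD2. CD4 also had the highest mean of the whole acute-phase list, 12.86. PD2 came next at 12.14, and CD3, the mouse with the most Cxcl1, had 12.08.

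Markers of the cells that make or answer these cytokines were read on the same arrays. The 10 Kupffer cell and macrophage markers had a mean per mouse of 8.68 to 8.78 in PD and 8.41 to 8.92 in CD mice, with 0 called and 7 of 10 above background on all 8 arrays. CD3 had the highest of these means and CD2 the lowest. The part of this in the values of Cxcl1 was not tested. Of 8 measured neutrophil markers 0 were called and 3 were above background on all 8 arrays, Elane, Ngp and S100a8, whereas Ltf, Mmp8 and Mpo were at background on all arrays. Their mean per mouse was 7.34 to 7.42 in PD and 7.40 to 7.48 in CD mice. Of the 8 differences 7 were below 0 and 1 above, with a median of −0.07. S100a9, above background on 4 of the 8 arrays, differed by −0.27 and was not called (rank product FDR = 0.171). CD3, with 7.40, had the lowest neutrophil mean of the CD mice, but its array also had the lowest background level, 7.36. Of the 3 markers above background on all arrays, Ngp was lowest in CD3 among the CD mice, at 7.84, and Elane and S100a8 were not. Whether the mice differed in neutrophils was not tested. Of the other marker lists, Col3a1 among 8 stellate cell markers was called higher, and none was called among 7 T and NK cell, 4 B cell, 6 sinusoidal endothelial and 4 cholangiocyte markers, of which 1, 1, 4 and 0 were above background on all 8 arrays. All 7 measured hepatocyte markers were above background, with means of 14.07 to 14.16 in PD and 14.05 to 14.13 in CD mice. RNA integrity was read as the log2 difference between the 3′ and 5′ control probe sets. It was 1.16 ± 0.02 in PD and 1.17 ± 0.01 in CD mice for Actb (SD, n = 4 each; two-sided exact permutation p = 0.457). For Gapdh it was 0.14 ± 0.03 in PD and 0.14 ± 0.02 in CD mice (SD, n = 4 each; two-sided exact permutation p = 0.943). The arrays' medians ran between 7.09 and 7.16.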

How the data were processed

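Liver RNA of 4 PD and 4 CD mice was hybridised to 1 Affymetrix array each. Scanned probe intensities had been summarised by the authors into a model-based expression index in R 2.7.2, per the submitters' processing notes, and the deposited values are log2 of that index. No further normalization was applied. How the arrays were normalized to each other is not stated in the paper, labels or files read here. Arrays hold no read counts, and the number of mice limits the precision. The 64 control probe sets were left out. Of the other 45037, the platform annotation gave 1 symbol to 34945, several to 932 and none to 9160, and only those with 1 symbol were named.

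The rank product of the study's methods was computed in Python 3.11.15 (numpy 2.4.6, pandas 2.3.3, scipy 1.17.1) over 16 array pairs with 1000 permutations, and limma 3.58.1 in R 4.3.3 was fitted as a second test, both over all probe sets. Single values were tested over the 8 mice by exact permutation, two-sided. The code was tested on simulated data. The mice are separate animals with 1 array each. The p-values of limma, the t-test and the exact permutation test therefore measure the spread between these mice. The rank product FDR comes from permuting values among probe sets within each array, and it does not measure that spread. Each of the 9 called probe sets had a within-diet SD above that of at least 95.8% of the probe sets above background on all arrays. Every probe set of the 10 genes is given, and of the pathway lists the called genes and a fixed set of 13 signalling and target genes. Of that set Nfkb1 is not given, because no probe set carries its symbol alone. The chemokine-list genes above background on all 8 arrays are given as well. The members and lists were chosen with earlier results of these data known. The alternatives were a stricter FDR threshold, limma in 3 forms (plain, with trend and robust variances, with the replicate number as a block), the t-test of the study's methods, quantile normalization, median centring, a filter on dim probe sets, 16 added before log2, omission of _x_at and _s_at probe sets, leaving out each mouse, other background levels and, added after seeing the data, another random seed.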

Additional observations from a re-analysis of the deposited data

Results flagged for a closer look

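In 78 groups of 4 mice (39 probe sets in each diet), the mouse farthest from the others was set against Dixon's 95% critical value. It was exceeded in 6 groups, and chance alone would give about 3.9 at 1 in 20. Among the 10 genes, Il6ra on 1452416_at had a single low CD mouse, CD4 at 8.43, with the other CD mice between 9.79 and 9.83. Il6st on 1437303_at was lowest in PD2 at 10.39, with the other PD mice at 10.46. Nfkbiz on 1457404_at was lowest in PD3 at 7.42, with the other PD mice between 7.68 and 7.70. Among the other genes named, Nfkbia on 1420088_at was lowest in PD1 at 10.82, with the other PD mice at 10.97, and Saa1 on 1419075_s_at was highest in PD2 at 12.15, with the other PD mice between 10.58 and 10.69. Il6 on 1450297_at was lowest in CD2 at 5.67, with the other CD mice between 5.78 and 5.80, all at background. No explanation of these single mice was tested.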

How the results depend on the processing

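The 9 member probe sets called lower stayed 9 after quantile normalization, median centring or 16 added before log2, and were 8 with another random seed, which lost Nfkbiz; 0 members were called higher in any setting. At an FDR under 0.05, 4 members (Il17re 1439357_at and the 3 probe sets of Cxcl1) and 60 of all probe sets were called lower. With the filter on dim probe sets, 4 members (Il1r1 and Cxcl1 on 3) were called lower, with 60 lower and 62 higher of all. Without _x_at and _s_at probe sets, 4 members were called lower (Il1r1, Il6ra, Il17re and Cxcl1 on 1 each). By limma, limma with trend and robust variances, and the methods' t-test after Benjamini-Hochberg adjustment, 0 members, 0 pathway genes and 0 of all probe sets were called in either direction. The methods' t-test without adjustment (p under 0.05) called 0 members, 3 pathway genes lower and 1 higher, and 880 lower and 831 higher of all probe sets. Leaving out 1 mouse at a time, members called lower ran from 0 (without CD3) to 9, pathway genes called lower from 0 to 6 and higher from 0 to 3, and all probe sets called lower from 16 to 207 and higher from 27 to 190. The cause of these changes was not tested. Same-numbered mice did not deviate together (correlations of −0.06 to −0.00 for the 4 pairs). Pairs of different number ran from −0.19 to 0.16, so these values cannot exclude a pairing. The labels give a replicate number and name no pairs. Limma with the replicate number as a block called 0 members, 0 pathway genes and 0 of all probe sets.

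Signs turned when single mice were left out, with ranges of the difference of −0.042 to 0.0070 (Il17re 1452109_at), −0.038 to 0.043 (Il1r1 1459777_at), −0.62 to 0.10 (Socs3 1455899_x_at), −0.64 to 0.072 (Socs3 1456212_x_at), −0.010 to 0.061 (Il17re 1426566_s_at), −0.11 to 0.025 (Il6st 1460295_s_at), −0.065 to 0.014 (Nfkbiz 1448728_a_at) and −0.090 to 0.0017 (Rela 1419536_a_at). Among the other genes they were −0.086 to 0.027 (Il17ra), −0.024 to 0.035 (Il6), −0.023 to 0.066 (Jak2), −0.040 to 0.013 (Il1rap), −0.034 to 0.074 (Jak1), −1.21 to 0.41 (Lcn2) and −1.86 to 0.12 (Saa2), and the difference of the Gapdh ratio ran from −0.012 to 0.010. With the background at the 90th and 99th percentile or from the germ cell, eye and brain list, 19, 14 and 11 member probe sets and 10, 9 and 7 genes were above it on all arrays. With 4 mice per diet, differences below the spread between mice could not be resolved.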
